A study of Musca domestica with 6 samples.

Results

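The control larvae of a study of the chitinase MdCht9 are described here by themselves: the 3 libraries of housefly (Musca domestica) larvae injected with dsGFP (double-stranded RNA against GFP), out of 6 libraries in the series. Samples were chosen by their titles, which name dsGFP and a replicate number. Each library was made from whole second-instar larvae (instar 2), collected 24 h after injection, from 3 µg of RNA extracted with Trizol. GFP is a jellyfish gene with no counterpart in the fly, so dsGFP is a usual control for RNA interference (RNAi), in which double-stranded RNA leads to the breakdown of matching transcripts. No strain, sex or diet is given in the labels. The larvae were themselves injected, and uninjected larvae were not analysed here. The labels give n = 3 per group without saying whether each sample was its own batch of animals, so part of the spread between the 3 may be technical.

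A fly maggot feeds continuously, grows within a chitin cuticle that it sheds at each moult, and stores amino acids for metamorphosis. The fat body, the insect counterpart of liver and adipose tissue, secretes hexamerins into the blood. The aromatic-rich hexamerins are called arylphorins in blowflies and houseflies, and larval serum proteins in Drosophila. Body wall muscle, the digestive midgut with its chitin-containing peritrophic matrix, and the epidermis that secretes cuticle make up most of the rest of the animal.

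The libraries held 15439421, 15314878 and 15414131 counted reads in replicates 1, 2 and 3. One read was worth 0.065 CPM (a gene's reads scaled to a common library size by the library's total) on average, and a count of 0 in all 3 libraries allows a level of up to 0.065 CPM (3 reads over the 3 libraries, counting error only). Of 14227 genes in the table, 9522 (66.9%) had at least 1 CPM in each library and are called detected. A further 1857 genes (13.1%) averaged under 0.1 CPM and are called near-silent, and among them 456 (3.21%) had no read in any of the 3 libraries. Replicate 3 stood apart from the others: Spearman's rho over the 6311 genes of at least 10 CPM was 0.969 between replicates 1 and 2, 0.896 between 1 and 3 and 0.910 between 2 and 3. Levels of the main genes are therefore given per library, in the order 1, 2 and 3, and the families that moved with replicate 3 are described last.

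Whole-body tissue was checked with marker genes, chosen by words in their descriptions. Summed markers of fat body reached 131835 ± 9609 CPM (SD, n = 3; 14 of 15 genes detected), of epidermis 34222 ± 8716 CPM (38 of 71), of muscle 26554 ± 3982 CPM (12 of 14), of midgut 17559 ± 1321 CPM (92 of 126), of the Malpighian tubule, the insect kidney, 7787 ± 454 CPM (22 of 24) and of haemocytes, the blood cells, 2480 ± 67.6 CPM (6 of 7). Of the 24 Malpighian tubule genes, 23 are described as V-type proton ATPase, a pump that is also counted among the transporters below. The other is uricase (LOC101898809, 186 ± 64.4 CPM), so most of that sum need not come from the tubule. Salivary gland markers summed to 455 ± 125 CPM and nervous system markers to 160 ± 27.4 CPM. One phrase of the series text names a retina. Summed retina markers were 29.8, 36.3 and 37.8 CPM in the 3 libraries, with 4 of 16 genes detected, and on average 24.3 CPM of that came from a beta-arrestin (LOC101889278). The most abundant opsin, Rh6 (LOC101900041), a light receptor, stood at 3.63, 3.66 and 3.63 CPM, and opsin Rh1-like (LOC101891803) at 0.0648, 0.0653 and 0.0649 CPM, 1 read in each library. In whole animals, fewer cells of a type and less RNA per cell cannot be told apart.

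Reads were concentrated in few genes. On mean CPM, 214 genes held 50% of the reads, 1383 genes held 80% and 2790 held 90%, and the 50% mark fell at 188, 209 and 227 genes in the single libraries. In the ranking by mean CPM the first gene alone took 2.99% of the reads, the top 10 took 16.3% and the top 100 took 39.1%. The 10 leading genes of each single library held 17.6, 16.3 and 15.3% in replicates 1, 2 and 3. The 142 genes of highest mean CPM held 43.9% of the reads, and the 2265 genes from 0.1 to 1 CPM held 0.0933%. The median gene stood at 6.97 CPM, the median protein-coding gene at 8.47 CPM and the median long non-coding RNA at 0.152 CPM.

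**Figure D1:**
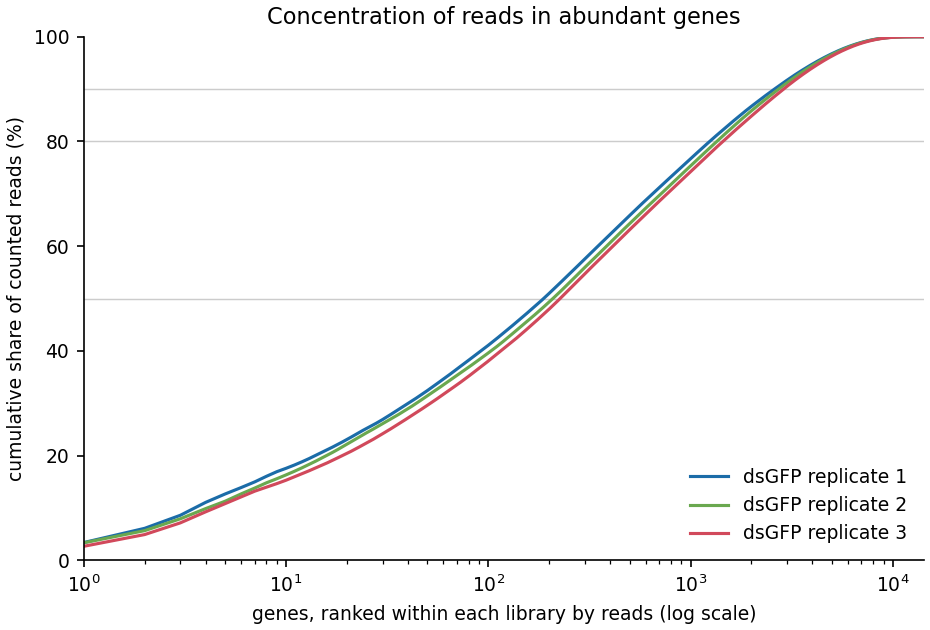
Cumulative share of counted reads (percent, vertical axis) against genes ranked by reads within each library (log scale, horizontal axis), 1 line per dsGFP library, with grey lines at 50, 80 and 90%. The curves lie close together, with replicate 1 reaching 50% at 188 genes and replicate 3 at 227.

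The 30 genes of highest mean CPM held 25.4% of the reads and included 6 hexamerins, 10 muscle proteins, 3 larval cuticle proteins and 2 elongation factors. Genes outside the families were a homologue of Arc, the activity-regulated cytoskeleton-associated protein (LOC101900721, 4674 ± 683 CPM) and a gene described as development-specific 25 kDa protein (LOC101900888, 4102 ± 736 CPM). These ranks are of reads, not of molecules, since longer transcripts give more reads and no transcript length was used. The authors' alignment score of each gene's best protein match, which grows with protein size, served as a stand-in for length. Of the 30 genes, 28 had a score, while transferrin and actin-5C had none and could not be ranked this way. Per unit of score, 17 of the 30 stayed in the top 30, and the lead passed to LOC101888730 (fibrous sheath CABYR-binding protein-like), whose own score was only 134, followed by 3 larval cuticle proteins. Replicate 3 was the lowest library for 18 of the 30 genes (60%) and the highest for 9 (30%), beside 30.6% and 52.1% of all genes of at least 10 CPM.

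**Figure D2:**
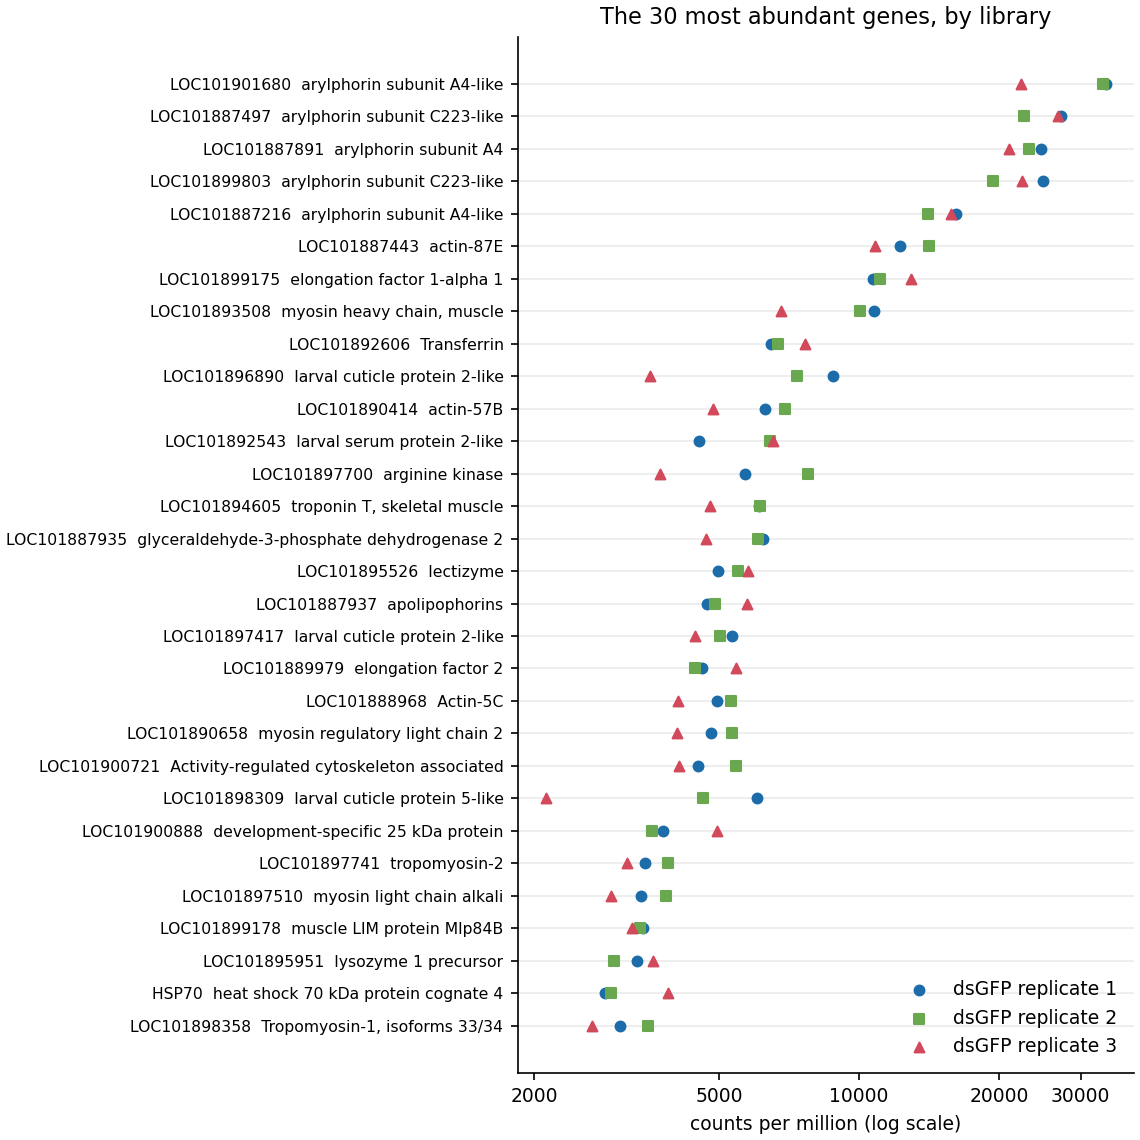
Level of the 30 most abundant genes (CPM, log scale, horizontal axis) in each dsGFP library, 1 symbol per library, genes ordered by their mean. The 5 leading arylphorins sit between 14044 and 33975 CPM, and larval cuticle proteins such as LOC101896890 show replicate 3 far to the left of the others.

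Hexamerins led the larval transcriptome. The 14 hexamerin genes took 13.8, 12.4 and 11.8% of the reads in replicates 1, 2 and 3 (12.7 ± 1.01%, n = 3), more than any other family counted. Of these, 13 (92.9%) were detected, beside 66.9% of all genes. LOC101901680 (arylphorin subunit A4-like) stood at 33975, 33508 and 22306 CPM, from 524555, 513177 and 343823 reads. LOC101887497 (arylphorin subunit C223-like) had 27176, 22619 and 26812 CPM, and LOC101887891 (arylphorin subunit A4) had 24615, 23207 and 21052 CPM. Replicate 3 was the lowest library for the first and the last of these genes, and lay between the others for LOC101887497. LOC101899803 (22226 ± 2734 CPM) and LOC101887216 (15307 ± 1110 CPM) completed the 5 most abundant genes of the larva. LOC101892543 (larval serum protein 2-like), a relative of the Drosophila storage protein Lsp2, followed at 4525, 6414 and 6511 CPM, here with replicate 1 the lowest. At the low end LOC101892890, also larval serum protein 2-like, reached 7.14 CPM, and arylphorin subunit A4-like LOC101900602 only 0.324 CPM.

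Of the 14 hexamerins, 10 lie in runs of neighbouring genes. A run of 7 arylphorins sits on scaffold NW_004764612.1 between positions 470400 and 528567, all on the plus strand and with 0 other genes of the table between them, and held 9.74% of the reads. Its last member, LOC101888933 (2286 ± 1137 CPM), is annotated as a pseudogene and was counted with the 14 hexamerins. Levels in the run went from 514 CPM (LOC101888579) to 29930 CPM (LOC101901680). Another run of 3 genes on NW_004764999.1, between 278802 and 294254, held 2.31% of the reads, and in it the abundant LOC101899803 neighbours LOC101900426 (914 CPM) and the barely read LOC101900602. Positions are those of the authors' deposited table, whose assembly is not named there. Near-identical copies can share reads, so the split between single arylphorins is uncertain.

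Other blood and fat body products were also abundant. The iron carrier transferrin (LOC101892606) stood at 6473, 6678 and 7652 CPM. The iron store ferritin was read from 2 genes at nearly equal levels, LOC101898530 at 2890 ± 466 CPM and LOC101898813 at 2836 ± 413 CPM. Apolipophorin (LOC101887937), the lipid shuttle of insect blood, had 4693, 4891 and 5748 CPM, and a fatty acid-binding protein (LOC101888140) 2609 ± 352 CPM. The lipid droplet coat proteins LSD-1 (LOC101897935) and LSD-2 (LOC101900622) reached 683 ± 140 and 316 ± 144 CPM. The 8 iron genes took 1.27 ± 0.0365% of the reads and the 7 lipid transport genes 0.888 ± 0.0206%.

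The 52 genes of the contractile apparatus took 7.95, 8.40 and 6.38% of the reads (7.58 ± 1.06%), and 43 (82.7%) were detected, beside 66.9% of all genes. Actin-87E (LOC101887443) led with 12254, 14169 and 10824 CPM, followed by muscle myosin heavy chain (LOC101893508), the motor of the thick filament, with 10784, 10057 and 6784 CPM and by actin-57B (LOC101890414) with 6282, 6913 and 4847 CPM. All 3 genes were lowest in replicate 3. Arginine kinase (LOC101897700), an enzyme that buffers ATP in arthropod muscle, had 5693, 7753 and 3727 CPM. Of the thin filament's calcium switch, troponin T (LOC101894605) reached 5658 ± 772 CPM and tropomyosin-2 (LOC101897741) 3504 ± 362 CPM. The regulatory myosin light chain (LOC101890658) had 4722 ± 640 CPM. The LIM protein Mlp84B (LOC101899178), a component of the muscle Z-disc, was even, at 3418, 3372 and 3240 CPM. The cytoplasmic actin-5C (LOC101888968) and the main tubulins alpha-1 (LOC101900596) and beta-1 (LOC101899757) stood at 4773 ± 628, 2763 ± 267 and 2687 ± 135 CPM.

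**Figure D3:**
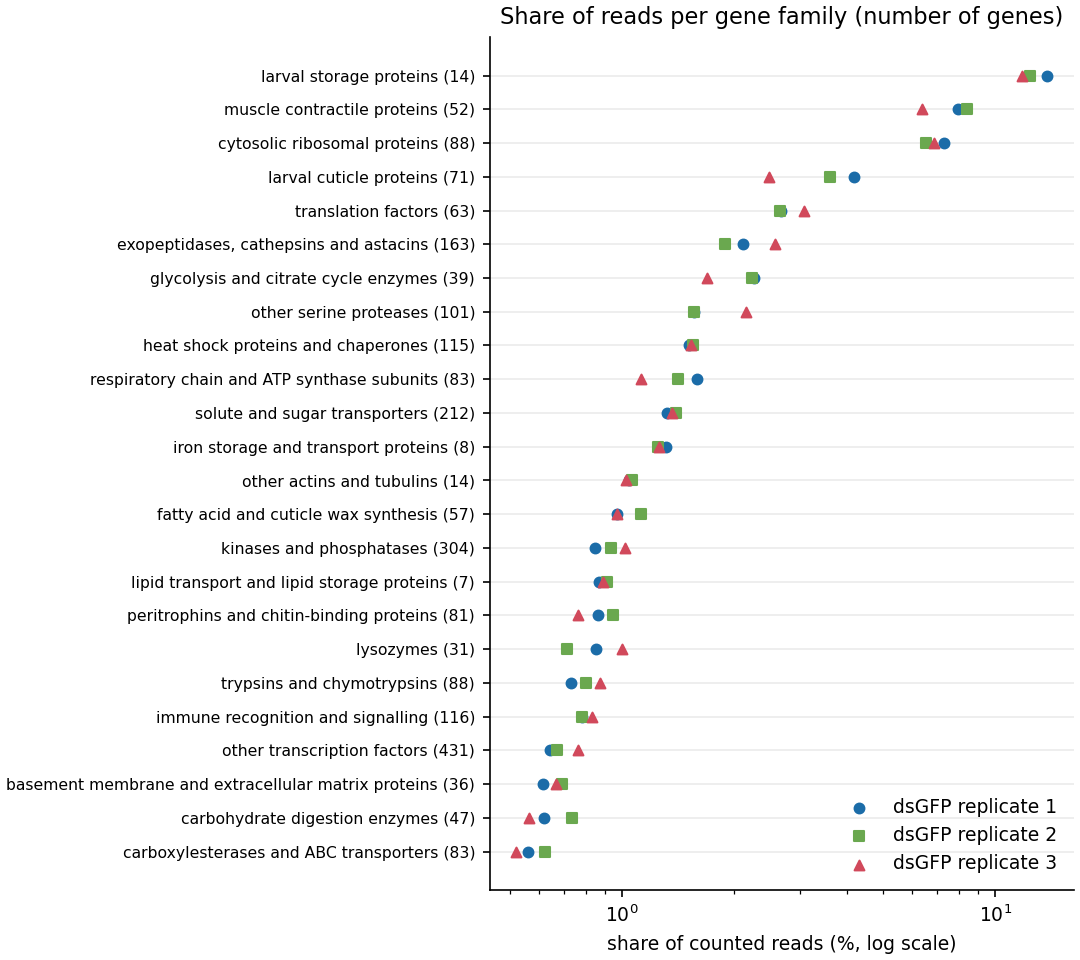
Share of counted reads (percent, log scale, horizontal axis) for the 24 gene families of largest mean share, with the number of genes in brackets and 1 symbol per dsGFP library. Hexamerins lie between 11.8 and 13.8%, and larval cuticle proteins spread from 2.47% in replicate 3 to 4.18% in replicate 1.

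Cytosolic ribosomal proteins were abundant and even between libraries. The 88 genes matched as cytosolic ribosomal proteins took 7.28, 6.51 and 6.87% of the reads (6.89 ± 0.381%), with a median of 791 CPM per gene. Of these, 80 (90.9%) were detected, beside 66.9% of all genes. L7a (LOC101890481) led them at 2334 ± 136 CPM, ahead of S3a (LOC101892236, 2039 ± 75.4 CPM) and L23a (LOC101891700, 1715 ± 72.3 CPM). Per unit of alignment score the ribosomal share, from the 74 of 88 genes with a score, was 11.5% and the hexamerin share 4.82%, which reverses their order. Elongation factor 1-alpha (LOC101899175), which brings tRNAs to the ribosome, stood at 10690, 11067 and 12920 CPM, and elongation factor 2 (LOC101889979), which moves the ribosome on, at 4589, 4437 and 5429 CPM. Both were highest in replicate 3. All 33 proteasome genes and all 74 mitochondrial ribosomal genes were detected, proteasome genes at a median of 147 CPM and the mitochondrial ones at 11.7 CPM.

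Energy metabolism took 3.82 ± 0.624% of the reads over 4 families. Glyceraldehyde-3-phosphate dehydrogenase (LOC101887935) had 6214, 6053 and 4685 CPM, enolase (LOC101894089) 2398, 2567 and 1457 CPM and pyruvate kinase (LOC101892944) 1376, 1517 and 1131 CPM. The mitochondrial ADP/ATP carrier (LOC101889408), which exports ATP, stood at 2719, 2329 and 1766 CPM and the beta subunit of ATP synthase (LOC101901126) at 1834, 1774 and 1344 CPM. Each of these 5 genes was lowest in replicate 3. The chaperones were steadier as a family, at 1.53 ± 0.0199% of the reads, led by the constitutive heat shock cognate 4 (symbol HSP70, 3211 ± 576 CPM), protein disulfide-isomerase (LOC101900371, 1832 ± 356 CPM) and HSP83 (LOC101896501, 971 ± 189 CPM).

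Cuticle genes were abundant and uneven. The 71 larval cuticle protein genes took 4.18, 3.61 and 2.47% of the reads, and 38 (53.5%) were detected, below the 66.9% of all genes, while 18 were near-silent. The 3 leading genes held 46% of the family. They were LOC101896890 (larval cuticle protein 2-like) with 8789, 7339 and 3541 CPM, LOC101897417 (2-like) with 5328, 5009 and 4424 CPM and LOC101898309 (5-like) with 6039, 4617 and 2118 CPM. Per unit of alignment score the family share was 10.1%. Larval cuticle genes lie in runs: 12 genes on NW_004764712.1 took 1.16% of the reads with 11 detected, and 7 genes on NW_004765578.1 took 1.48%, while a run of 4 genes on NW_004757941.1 had 0 detected and a highest level of 0.13 CPM. Of the 80 pupal, adult and other cuticle proteins, 20 (25%) were detected and 34 (42.5%) near-silent, beside 66.9% and 13.1% of all genes, and cuticle protein 7 (LOC101898868) led at 555 ± 110 CPM.

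Chitin turnover genes were read at moderate levels. Chitin synthase (LOC101895796), which polymerises chitin, had 96.2, 97.7 and 35 CPM, and its paralogue LOC101898706 11.1, 11.6 and 14 CPM. The aminotransferase that opens the pathway to chitin precursors (LOC101889985) had 264, 228 and 120 CPM. The most abundant members of the chitinase family were not chitinases by name but the chitinase-like growth factor Idgf4 (LOC101890724, 1323 ± 294 CPM) and the chitinase-like protein CG5210 (LOC101892322, 1110 ± 88.3 CPM). The gene with the symbol chitinase, described as acidic mammalian chitinase, had 139, 379 and 14.5 CPM, highest in replicate 2 and lowest in replicate 3. Another gene of that description, LOC101893352, had 175, 156 and 94.9 CPM, and 28 of the 33 genes of the family (84.8%) were detected, beside 66.9% of all genes.

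Digestive proteins came from many genes. Exopeptidases, cathepsins and astacins took 2.19 ± 0.351% of the reads over 163 genes, other serine proteases 1.75 ± 0.339% over 101 genes, and trypsins and chymotrypsins 0.801 ± 0.0709% over 88 genes. The lectizyme gene LOC101895526, named for a midgut protease with lectin activity in tsetse flies, led these families, at 4979, 5495 and 5777 CPM. Alpha-amylase (LOC101900389), which digests starch, had 2208, 2631 and 2271 CPM, a lysosomal aspartic protease-like gene (LOC101894831) 2019, 1468 and 3120 CPM and the leading trypsin-like gene (LOC101888438) 1020, 1202 and 721 CPM. The aspartic protease was highest in replicate 3 and the trypsin lowest there. Of the 88 trypsins and chymotrypsins 63 (71.6%) were detected, near the 66.9% of all genes, and 13 of them lie in 1 run of 45238 bases on NW_004765895.1. Peritrophin-48 (LOC101900380), a chitin-binding protein of the gut lining, led the 81 peritrophin and chitin-binding genes at 995, 1381 and 826 CPM.

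Lysozymes, which flies use to digest bacteria as well as in defence, took 0.853, 0.712 and 0.999% of the reads over 31 genes, and the top 3 held 78.4% of that. LOC101895951 had 3333, 2973 and 3593 CPM, and the gene with the symbol lysozyme 2334, 1634 and 2908 CPM, both highest in replicate 3 and lowest in replicate 2. Antimicrobial peptides took 0.432 ± 0.0776%, with 23 of 33 genes (69.7%) detected, near the share of all genes. Of these, antifungal peptide-1 (LOC101898763) had 2515, 2307 and 1142 CPM, defensin-1 588, 782 and 690 CPM and sarcotoxin-2A-like LOC101893852 328, 555 and 378 CPM. The peptidoglycan recognition protein SC2-like LOC101892676, which binds bacterial cell walls, stood at 1247, 1206 and 1271 CPM, and hemocytin (LOC101888148), a clotting protein of blood cells, had 1258, 1179 and 1096 CPM.

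All 7 genes of the RNAi machinery were detected, beside 66.9% of all genes, with a median of 291 CPM against 6.97 CPM over all genes. Argonaute-2-like LOC101890924, the slicer that uses small interfering RNAs, had 791, 1217 and 602 CPM and the other argonaute-2-like gene, LOC101892105, 333, 424 and 117 CPM. A dicer described as dcr-1 (LOC101893656), which cuts double-stranded RNA, had 359, 658 and 240 CPM, with replicate 2 highest and replicate 3 lowest for all 3 genes. The dicer LOC101896691 and exportin-5 (LOC101895229) stood at 31.7 ± 2.63 and 34.8 ± 3.16 CPM. No uninjected larvae were analysed here, so whether these levels go with the injected double-stranded RNA was not tested.

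Of 150 cytochrome P450 genes 95 (63.3%) were detected, near the 66.9% of all genes. The leading ones, LOC101888923 (788, 1171 and 1958 CPM) and LOC101887882 (388, 359 and 450 CPM), are 4g1-like, the P450 type that makes the waterproofing hydrocarbons of the cuticle in Drosophila. Desaturases for fatty acids were also abundant, led by LOC101887803 (2394, 2907 and 1011 CPM) and LOC101887512 (2000, 2008 and 1558 CPM), both lowest in replicate 3.

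Of the 34 hormone genes 17 (50%) were detected, below the 66.9% of all genes, at a median of 3.26 CPM against 6.97 CPM over all genes. The genes named here stood above both medians. Juvenile hormone epoxide hydrolase (LOC101900320), which breaks down the hormone that keeps larvae larval, had 323, 408 and 396 CPM. The ecdysone receptor (LOC101888839), which answers the moulting hormone, had 39.3, 43.5 and 92.8 CPM, its partner ultraspiracle (LOC101887949) 30.5, 36.6 and 52.3 CPM, the broad-complex factor (LOC101892866) 66.1, 59.9 and 160 CPM and ecdysone 20-monooxygenase (LOC101896979), which makes the active hormone, 17.9, 27 and 66.8 CPM. Replicate 3 was the highest library for each of these ecdysone genes. Over the 13 genes of the hormone family with at least 10 CPM, replicate 3 was highest in 9, beside 52.1% of all genes of that level.

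Among families of at least 5 genes, 3 had more than 50% of their genes near-silent, namely the gustatory receptors, the odorant receptors and the yolk proteins. No odorant receptor of 28 and no gustatory receptor of 21 was detected, and 20 and 15 of them were near-silent, or 71.4% each beside 13.1% of all genes. The highest odorant receptor was 83a (LOC101898900) at 0.281 CPM, and the odorant receptor coreceptor (LOC101892079), with which insect odorant receptors work, had 0, 0 and 0.324 CPM. The most read gustatory receptor was 32a (LOC101887466) at 0.712, 0.457 and 0.843 CPM. Among 18 genes matched as ionotropic receptors 6 (33.3%) were detected, beside 66.9% of all genes. The leading one, LOC101896060, is described as kainate 2, not as a chemosensory receptor, and had 6.15, 10.4 and 17.9 CPM. Of the 49 soluble odorant carriers 17 (34.7%) were detected, also below the share of all genes, but general odorant-binding protein 99b-like (LOC101887971) had 2285, 1505 and 3420 CPM, rank 46 of all genes.

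**Figure D4:**
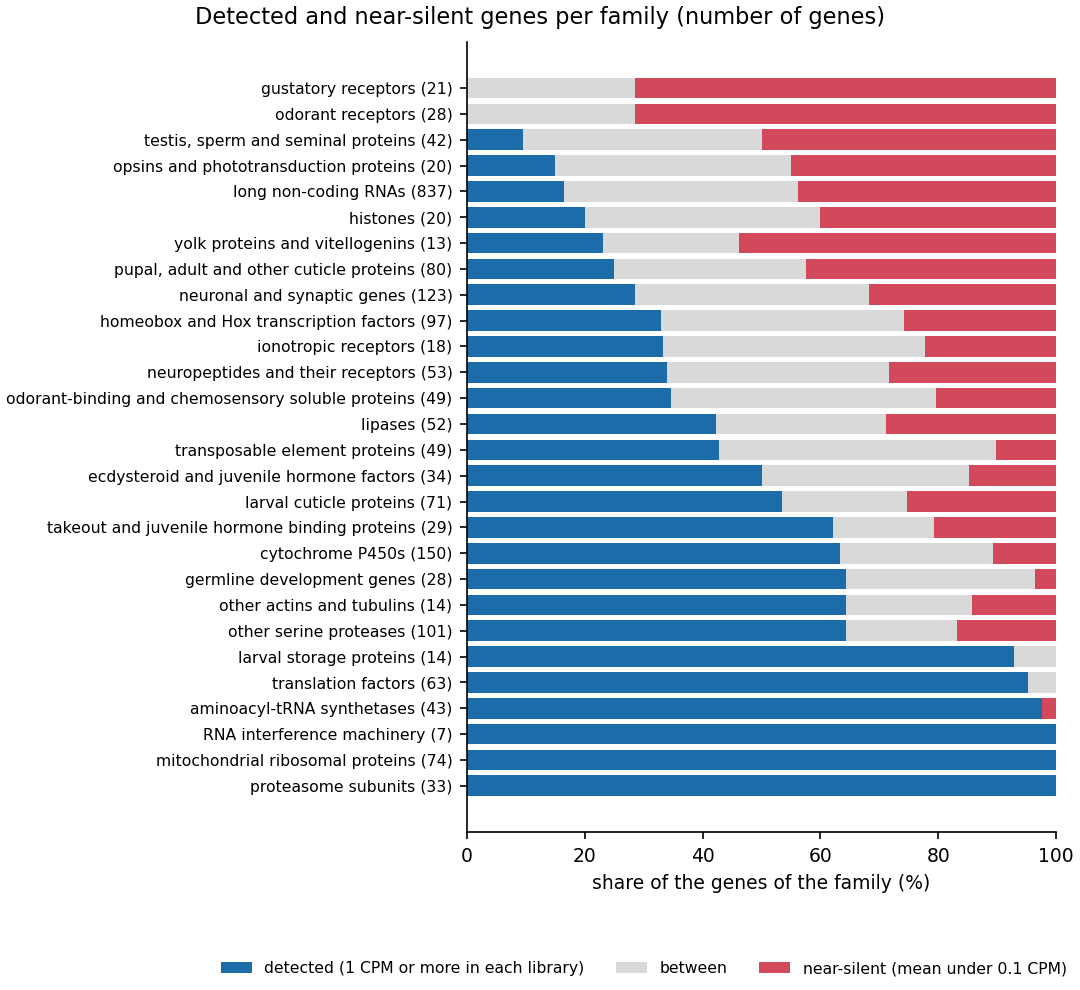
Share of genes (percent, horizontal axis) that were detected (at least 1 CPM in each library, blue), near-silent (mean under 0.1 CPM, red) or between (grey), for the 22 families of lowest and the 6 of highest detected share among families of at least 5 genes, with gene numbers in brackets. Gustatory and odorant receptors have no detected gene, and all genes of 3 families at the bottom were detected.

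Yolk proteins and vitellogenins, the egg's food store, were near-silent in 7 of 13 genes, but LOC105261614 (vitellogenin-like) had 133, 156 and 85.8 CPM and LOC101895544 (vitellogenin-1-like) 51.2, 44.1 and 84.1 CPM. Of the 4 eggshell proteins, too few for that count, 3 chorion genes stood at 0.0869 CPM or less, and vitelline membrane protein 15a-3-like LOC101888024 had 260, 239 and 157 CPM. Of 42 testis, sperm and seminal genes 4 (9.52%) were detected and 21 (50%) near-silent, beside 66.9% and 13.1% of all genes. Of 28 germline development genes 18 (64.3%) were detected, near the 66.9% of all genes, among them exuperantia (LOC101892196, 229 ± 36.2 CPM), piwi (LOC101900202, 46.4 CPM) and vasa (LOC101887752, 27.5, 38.5 and 24.1 CPM). Neither the sex of the larvae nor the state of their gonads is given in the labels.

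Neuronal genes were low in these whole larvae, with 35 (28.5%) detected, beside 66.9% of all genes. Of the summed nervous system markers, 148 CPM came from synaptotagmin-like protein 4 (LOC101895136). Elav (LOC101899346), the RNA-binding protein of neurons, had 3.24, 4.05 and 4.02 CPM and synapsin (LOC109613146) 0.453, 0.784 and 1.04 CPM, whereas synaptobrevin (LOC101900709), a fusion protein with wider use, had 298 ± 17.1 CPM. Homeobox and Hox genes, which pattern the embryo, had 32 of 97 (33%) detected, also below the share of all genes, and were led by extradenticle (LOC101891714) at 62.2 ± 9.03 CPM. Of 837 long non-coding RNAs, 138 (16.5%) were detected and 366 (43.7%) were near-silent, beside 66.9% and 13.1% of all genes. The long non-coding RNA LOC109611815 reached 1763, 1287 and 1719 CPM, rank 80 of all genes. Of 20 histones 4 (20%) were detected, beside 66.9% of all genes. The RNA selection and the rule for multiply mapped reads are not given, so histones with few reads need not be unexpressed. Histone H4-like LOC101897269 (217 ± 20.6 CPM) and the variant H2A.v (LOC101895971, 76.8 ± 9.20 CPM) were the most abundant of them. The 3 leading histones held 97.8% of the family's reads. The 3143 genes with no informative description took 7.14 ± 0.400% of the reads.

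Variation between the 3 libraries exceeded counting error for most genes. Over the 6311 genes of at least 10 CPM the median coefficient of variation was 0.167, beside 0.0407 for counting alone. In 880 genes (13.9%) the highest library was at least 2 times the lowest, and 470 genes (7.45%) stayed within 1.1-fold. Replicate 3 was the farthest library in 638 of the 880, high in 346 and low in 292. Without it, 2.52% of genes differed 2-fold or more, beside 8.57% without replicate 1 and 11.2% without replicate 2, and edgeR's biological coefficient of variation was 0.185 in place of 0.284. The evenest genes of at least 50 CPM, with coefficients from 0.347 to 1.1%, included ribosomal protein S5a (LOC101888187, 1009, 1002 and 1005 CPM) and nucleosome assembly protein 1 (LOC101897147, 355, 358 and 356 CPM). These are the extremes of 2381 described genes, and 354 genes of at least 10 CPM (5.61%) varied less than counting error alone. No cytosolic ribosomal gene of 78 at that level was variable, and 21 were within 1.1-fold.

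The most uneven genes were mainly high in replicate 3. Of the 10 described genes with the largest coefficient of variation, 9 were highest there. Of these, 3 were fat-body protein 1-like, named for the Drosophila fat body receptor for larval serum proteins: LOC101895449 with 698, 249 and 6510 CPM, LOC101892591 with 17.4, 30.6 and 1731 CPM and LOC101888507 with 9.39, 14.3 and 671 CPM. A neuropeptide Y receptor (LOC101893689) had 4.66, 9.86 and 390 CPM, a peroxidase (LOC101899725) 26.5, 24.6 and 436 CPM, the P450 gene CYP6A24 75.2, 71.4 and 984 CPM and a phospholipase A1-like gene (LOC101891974) 169, 97.4 and 1358 CPM. In each of these genes replicate 3 lay far above both others. The receptor gene's span on NW_004764706.1, from 80506 to 439478, holds 7 other genes of the table, of which 6 are phospholipase A1-like or lipase-like, 3 of them on its strand, and all 6 were highest in replicate 3. Reads of overlapping genes may not be told apart, so its level is uncertain. The exception was a protein disulfide-isomerase (LOC109612080), which was high in replicate 2, with 20.9, 169 and 12 CPM.

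Whole families moved with replicate 3. On CPM, replicate 3 was the highest library for 52.1% and the lowest for 30.6% of genes of at least 10 CPM, and TMM scaling changed these to 40.1 and 42.5%, a shift of the median gene from 0.12 to -0.02 on the log2 scale. Of 51 families with at least 0.02% of the reads, 22 were 1.25-fold or more away in replicate 3 from the mean of the other 2, 10 higher and 12 lower on CPM. With TMM scaling 6 were higher and 14 lower, and with DESeq2 scaling 6 and 15. None of the 22 families turned its direction under either, but none could. A scaling moves all families by nearly the same factor, here too small to undo a 1.25-fold difference. Low in replicate 3 were 64 of 67 respiratory chain and ATP synthase genes (share 0.751 times that of replicates 1 and 2), 39 of 41 mitochondrial ribosomal genes (0.735 times), 27 of 33 glycolysis and citrate cycle genes (0.752 times), 24 of 27 aminoacyl-tRNA synthetases (0.680 times) and 27 of 33 larval cuticle genes (0.634 times). Each of these counts is of genes with replicate 3 the lowest of the 3 libraries, a property of 30.6% of all genes.

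Larval cuticle genes differed widely between libraries, with 28 of 33 variable, or 84.8% beside 13.9% of all genes. They did not move as one, since 22 of the 28 were lowest in replicate 3 and 6 were highest. LOC101888740 (larval cuticle protein 5-like) had 405, 408 and 12.9 CPM and LOC101888394 (5-like) 279, 315 and 9.67 CPM, whereas LOC105262293 (9-like) had 861, 240 and 4112 CPM and LOC101900191 (5-like) 341, 225 and 1665 CPM. The pupal, adult and other cuticle proteins had the lowest ratio of the 51 families, 0.422, and pupal cuticle protein 36a-like LOC101895804 had 428, 644 and 46 CPM. Family shares were high in replicate 3 for P450s (1.67 times), lipases (1.74 times), takeout and juvenile hormone binding proteins (1.48 times) and other serine proteases (1.38 times, and just under the limit with TMM scaling). Replicate 3 was the highest library for 42 of 60 P450s (70%), 36 of 49 other serine proteases (73.5%), 10 of 15 takeout genes (66.7%) and 9 of 14 lipases (64.3%), beside 52.1% of all genes of that level. The neuropeptide family showed the highest ratio of the 51, 4.78, and 1.44 without the neuropeptide Y receptor gene named above, whose level is uncertain.

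**Figure D5:**
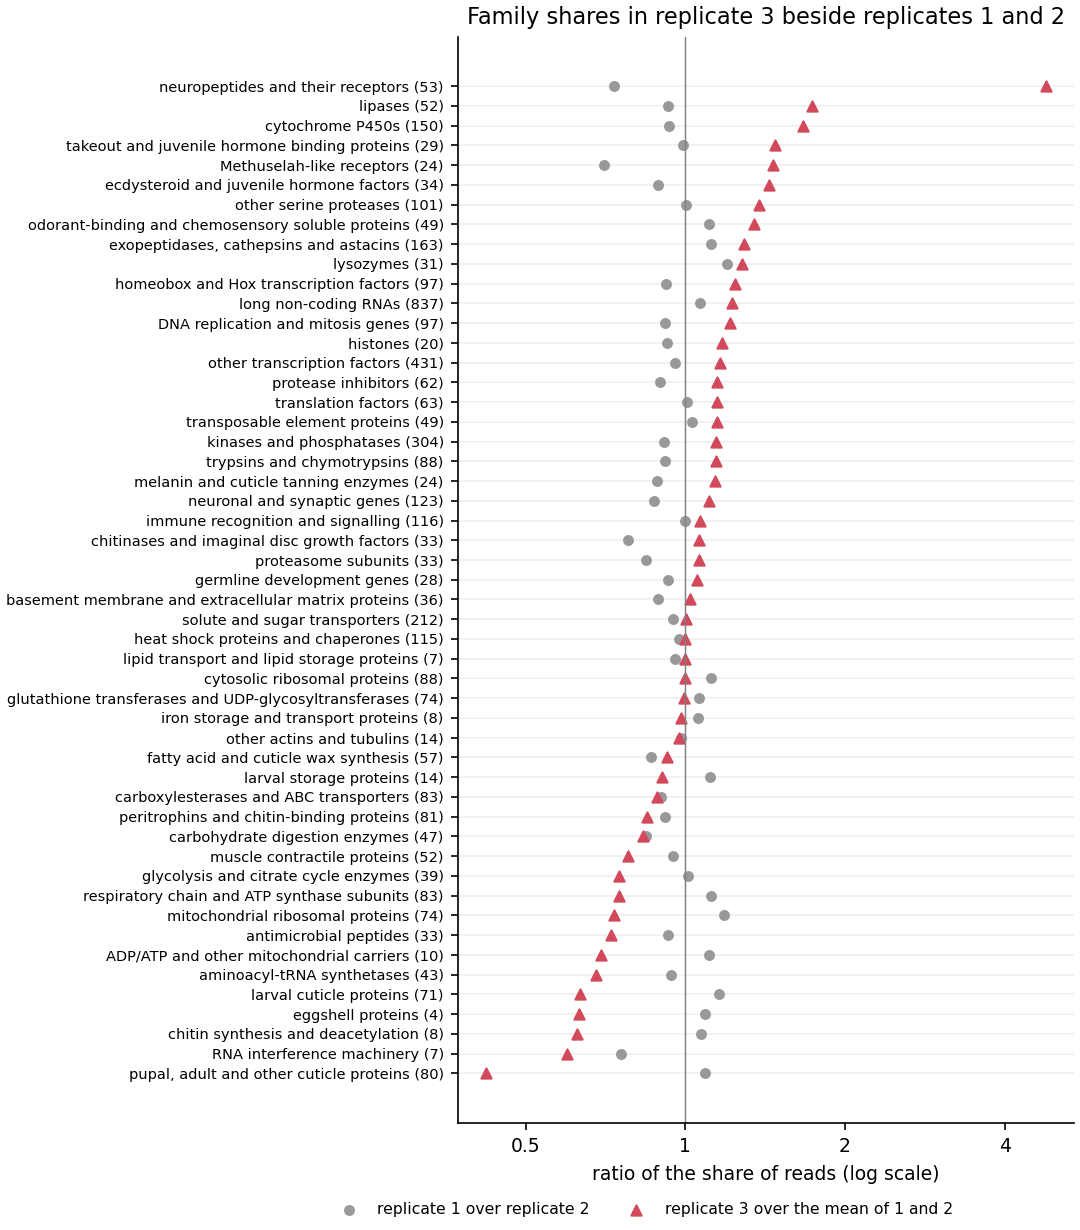
Ratio of each family's share of reads (log scale, horizontal axis) in replicate 3 to the mean of replicates 1 and 2 (red triangles), and in replicate 1 to replicate 2 (grey circles), for the 51 families of at least 0.02% of the reads, with gene numbers in brackets. Triangles run from 0.422 for pupal, adult and other cuticle proteins to 4.78 for neuropeptides and their receptors, a wider span than that of the circles.

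Summed tissue markers also differed between the libraries. Lowest in replicate 3 were those of fat body (142577, 128875 and 124055 CPM), epidermis (41832, 36120 and 24713 CPM), muscle (28401, 29278 and 21984 CPM), Malpighian tubule, mainly proton pump subunits (7889, 8182 and 7291 CPM), salivary gland (555, 494 and 315 CPM) and ovary (449, 445 and 334 CPM). The fat body markers did not move as one: of the 12 hexamerins of at least 10 CPM, 6 were lowest and 2 highest in replicate 3, and apolipophorin was highest there. The fat-body protein 1-like genes described above match no marker term and were highest in replicate 3, LOC101895449 with 698, 249 and 6510 CPM. Counted as fat body markers, they would lift the sum of replicate 3 above that of replicate 2. Of the ovary sum, LOC101888024 alone gave 260, 239 and 157 CPM, while vitellogenin-1-like LOC101895544 was highest in replicate 3. The leading salivary gland gene, LOC101897561, is described as basic salivary proline-rich protein 1-like and was matched by that name only. Midgut markers were highest in replicate 2 and nearly equal in replicates 1 and 3 (16834, 19084 and 16758 CPM). The share of trypsins and chymotrypsins was highest in replicate 3 (0.732, 0.798 and 0.874%), that of peritrophins and chitin-binding proteins lowest (0.864, 0.944 and 0.764%). Haemocyte markers lay between, at 2405, 2535 and 2501 CPM. Nervous system markers, at 136, 154 and 190 CPM, and those of retina and testis were highest in replicate 3, but single genes carried most of each sum. These were synaptotagmin-like protein 4 (124, 143 and 176 CPM), beta-arrestin LOC101889278 (19.5, 25.9 and 27.5 CPM) and dual specificity testis-specific protein kinase 2 (LOC101891812, with 20.6, 20.6 and 26.2 CPM). Synapsin was also highest in replicate 3 (0.453, 0.784 and 1.04 CPM), while elav was not (3.24, 4.05 and 4.02 CPM). The ecdysone genes described above were highest in replicate 3. Of all 13 hormone family genes of at least 10 CPM, 9 were highest and 2 lowest there, beside 52.1% and 30.6% of all genes. The part of tissue proportions or of developmental time in the spread was not tested.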

How the data were processed

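RNA of whole larvae was measured by sequencing in 6 samples, of which the 3 dsGFP samples were used here. The authors' deposited table holds raw read counts per gene for each sample, per the file headers, with gene symbols, scaffold positions and descriptions of the best protein matches. The alignment score of the best NR match, a score that grows with protein size, is also the authors' deposited value, and was used for 12816 genes whose match is a Musca domestica protein. The submitters' processing notes list HISAT2 2.1.0, then StringTie 1.3.2d, and also HTSeq 0.6.0, with no role for any. Which assembly, strand setting, RNA selection and rule for multiply mapped reads applied was not given in the sources used here, so single members of near-identical families are uncertain. Every gene of the table has a read in some library of the series, so counts of unread genes are lower bounds. Rows naming no gene numbered 0.

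Counts were divided by the library total (CPM) and averaged over 3 libraries. No groups were compared and no test was run. Each gene was put in the first of 58 families whose terms match its description (4575 genes in a family, 9652 in none). Members, lists and terms were chosen with earlier results of these data known. Terms were amended, and 1 list added, after descriptions and levels had been seen, which changed the family of 225 genes. Named genes are the 30 of highest mean CPM, the top 3 of each list, the 10 largest and 10 smallest coefficients of variation among described genes of at least 50 CPM, tissue markers, and genes of 10 CPM or more in a silent list (at least 5 genes, over 50% near-silent); other genes were named after their values were seen. Analyses used Python 3.11.15, R 4.3.3 and edgeR 4.0.16 (TMM, common dispersion after filterByExpr), checked on simulated data, with DESeq2 1.42.0 size factors as an alternative. A family's share had a 95% Wilson interval of at most 0.0246 percentage points to either side, counting error only. Comparisons per coding length and of sequence features were not run.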

Additional observations from a re-analysis of the deposited data

How the results depend on the processing

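No paired analysis was possible because no groups were compared. Dropping the 10 most abundant genes from the total gave hexamerins 1.29%, muscle 6.47% and ribosomal proteins 8.23% of reads, since 5 arylphorins are among them. Per alignment score, an alternative chosen after seeing the data, hexamerins held 4.82%, ribosomal proteins 11.5%, larval cuticle proteins 10.1% and the top 10 genes 12.3%, with 17 of 30 leading genes shared (28 of the 30 had a score). Leaving out 1 library gave 717 to 846 unread genes in place of 456 (fewer reads), 2.52 to 11.2% variable genes, lowest without replicate 3, and a biological coefficient of variation of 0.185 to 0.333. A limit of 0.5 CPM gave 3366 near-silent genes, and requiring only 1 read in each library gave 27.6% variable genes. Under TMM and DESeq2 alike, 6 in place of 10 families were higher in replicate 3. The other results named here stayed within 1.5 times under TMM, DESeq2, the median over libraries and the other limits. The planned fits per coding length were not run, as no lengths were used here. Family shares without 1 library moved by less than 1 SD, which their construction ensures.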

Other observations

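Extracellular matrix genes were read at high levels from few genes. The 36 basement membrane and matrix genes took 0.657 ± 0.0397% of the reads (SD, n = 3), 61.8% of it from 3 genes. These were tiggrin (LOC101894989), an integrin ligand in Drosophila, with 1694, 1765 and 2429 CPM in replicates 1, 2 and 3, the basement membrane heparan sulfate proteoglycan (LOC101900481) with 1120, 1159 and 1020 CPM and collagen IV alpha-1 (LOC101897761) with 967, 1275 and 738 CPM. The solute and sugar transporters, 172 of 212 (81.1%) detected beside 66.9% of all genes, took 1.36 ± 0.0365% and were led by proton pump subunits. The 16 kDa subunit of the V-type ATPase (LOC101895035) had 2093, 2182 and 1846 CPM, its catalytic subunit A (LOC101890307) 785, 851 and 721 CPM and subunit B (LOC101893693) 752, 773 and 674 CPM, each lowest in replicate 3.

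Defence and detoxification genes included phenoloxidase 2-like LOC101891047, an enzyme of melanin formation, with 828, 867 and 715 CPM, and the glutathione transferases LOC109612013 with 823, 717 and 675 CPM and LOC101897781 with 406, 475 and 676 CPM. A multidrug resistance-associated transporter (LOC101891911) was uneven, with 1121, 1603 and 333 CPM. Of the 52 genes counted as lipases 22 (42.3%) were detected, below the 66.9% of all genes, led by lipase 3-like LOC101899459 with 185, 96.6 and 419 CPM. Phospholipase A1-like genes such as LOC101892147 (428, 243 and 2730 CPM) fell in no family and stood above that gene. High values in replicate 3 were also seen in takeout-like LOC101891789, which had 256, 274 and 845 CPM, and in the protease inhibitor gene CYB1, with 99.9, 189 and 550 CPM. Among DNA replication and mitosis genes, 82 of 97 (84.5%) were detected, beside 66.9% of all genes, and replicate 3 was highest in 35 of the 40 of at least 10 CPM (87.5%), beside 52.1% of all genes. With TMM scaling the count was 30, beside 40.1% of all genes, and with DESeq2 scaling 28, beside 38.8%, and the family's ratio of 1.22 became 1.1 and 1.09.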
